A study of Arabidopsis thaliana with 48 samples.

Results

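Membrane lipid remodelling was described through 10 Arabidopsis thaliana genes, chosen by their gene identifiers out of the 33553 genes in the table of transcript levels. They are the galactolipid synthase genes MGD1 (AT4G31780), MGD2 (AT5G20410), MGD3 (AT2G11810), DGD1 (AT3G11670) and DGD2 (AT4G00550), the sulfolipid genes SQD1 (AT4G33030) and SQD2 (AT5G01220), and the phospholipase genes PLDP2 (AT3G05630), NPC4 (AT3G03530) and NPC5 (AT3G03540). All 10 were found, with 14 transcripts. The levels compared were those of wild-type (WT) seedlings and of seedlings carrying acc1-5, an allele of the gene for the cytosolic acetyl-CoA carboxylase ACC1, both in the Col-0 ecotype and sampled 12 days after germination. They grew on plates with 16 h of light and 8 h of dark. The labels repeat for every sample a spray with solvent or estradiol, so whether the RNA seedlings were sprayed is not clear from them, and they do not say how many seedlings went into a library. There were 3 RNA libraries per genotype, combined by the authors into 1 level per genotype. The other 42 of the 48 samples, chromatin immunoprecipitation and input libraries, were not analysed here.

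Plastid membranes are built mainly from galactolipids, sugar lipids without phosphorus, together with the sulfolipid sulfoquinovosyldiacylglycerol. MGD1 and DGD1 make most of the galactolipid of thylakoids, whereas MGD2, MGD3 and DGD2 are known as isoforms that serve when phosphate is scarce, a state in which plants break down phospholipids and put galactolipid and sulfolipid in their place. Phospholipases such as PLDP2 and NPC4 take part in that breakdown, and the diacylglycerol that results can feed galactolipid synthesis.

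Levels are given as FPKM, that is, fragments per length of transcript and per total of mapped fragments, with the authors' lower and upper bound for each level in brackets. These bounds stand in for an error, since the spread between the 3 libraries of a genotype is not in the tables used here. Each gene stands for its most abundant transcript, by the mean of both genotypes. It was called changed where the authors' program tested it and their q-value, adjusted over 25307 tested transcripts, was under 0.05. Of 20509 genes whose main transcript was tested, 10.9% were called higher in acc1-5, 9.04% lower and 19.9% either way. Sequencing depth is unknown. ACC1 (AT1G36160) itself had 33.1 FPKM in WT and 33.4 FPKM in acc1-5, and what the allele does to its transcript is not stated in the labels.

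Of the 10 genes, 6 rose in acc1-5, 0 fell, 3 were tested without a call and 1, NPC5, was not tested. The 6 that rose were MGD2, MGD3, SQD1, SQD2, PLDP2 and NPC4, and the 3 without a call were MGD1, DGD1 and DGD2. The 9 tested genes had a median log2 difference of 1.37, against -0.01 over all tested main transcripts. The members were picked with earlier results of these data known, so their count of rises describes them and is not independent evidence. All 6 rises share q = 7.46e-04 in the authors' deposited table, which belongs to the smallest p-value given there (5e-05), and p therefore gives no order among them. In each of the 6, the lower bound in acc1-5 lay above the upper bound in WT. Bounds separated in that way, with the higher level in acc1-5, were found in 5.24% of tested main transcripts.

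**Figure D1:**
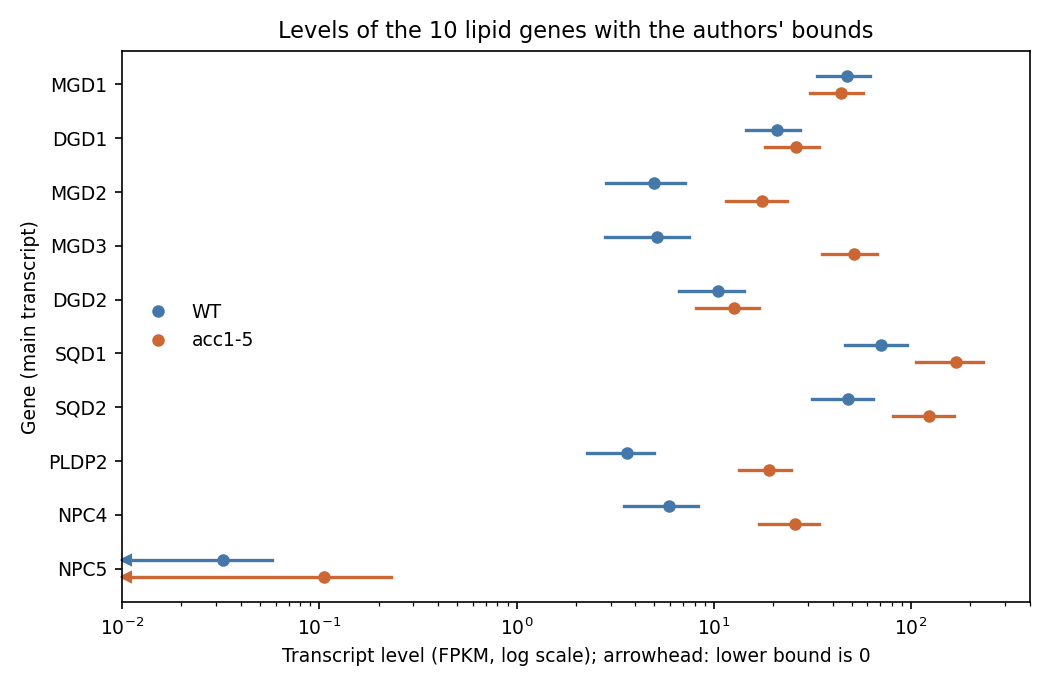
Level of the main transcript of each of the 10 genes in FPKM on a log scale, in WT and in acc1-5. Points are the authors' levels, lines their bounds, and arrowheads mark a lower bound of 0; the lines of MGD2, MGD3, SQD1, SQD2, PLDP2 and NPC4 do not overlap between genotypes, those of MGD1, DGD1, DGD2 and NPC5 do.

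The genes of the main plastid galactolipid synthases had close levels in both genotypes. MGD1, which makes monogalactosyldiacylglycerol in the inner plastid envelope, had 47.6 FPKM in WT (33.3 to 61.9) and 44.1 FPKM in acc1-5 (30.8 to 57.4). The log2 difference of MGD1 was -0.11, with q = 0.833 in the authors' deposited table. DGD1, which adds a further galactose to form digalactosyldiacylglycerol, had 20.9 FPKM in WT (14.5 to 27.2) and 26.1 FPKM in acc1-5 (18.1 to 34.2). Its log2 difference was 0.32, with q = 0.277 in the authors' deposited table. The bounds of the genotypes overlapped for both genes. Taking the bounds at their extremes, the log2 difference could lie between -1.01 and 0.79 for MGD1 and between -0.59 and 1.24 for DGD1, so a moderate change in either direction cannot be told from none. Among tested transcripts within 1.2-fold of their mean levels, the smallest absolute log2 difference that the authors' program called was 0.49 for both. The median of the called absolute differences was larger, 0.75 near the level of MGD1 and 0.85 near that of DGD1.

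MGD2 and MGD3, which encode the galactolipid synthases of the outer plastid envelope, rose. On the TAIR10 build, MGD3 lies on chromosome 2 at 4743322 to 4746780 and MGD2 on chromosome 5 at 6896576 to 6898783. MGD3 had 5.15 FPKM in WT (2.80 to 7.49) and 51.4 FPKM in acc1-5 (35.4 to 67.5). This was the largest fold difference among the 10 genes, 9.98-fold or 3.32 on the log2 scale, and higher than that of 98.7% of all tested transcripts (q = 7.46e-04 in the authors' deposited table). MGD2 started from nearly the same WT level, 5.00 FPKM (2.85 to 7.13), and reached 17.5 FPKM (11.5 to 23.6). Its fold difference was 3.51, or 1.81 on the log2 scale (q = 7.46e-04 in the authors' deposited table). The bounds of these isoforms overlapped almost wholly in WT and not at all in acc1-5, where MGD3 lay above MGD2. A second MGD3 transcript was listed at 0 FPKM in WT and at 2.16 FPKM in acc1-5 (0 to 5.77), and was not called (q = 0.360 in the authors' deposited table).

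DGD2, grouped with them as the digalactosyldiacylglycerol synthase that responds to phosphate, differed from MGD2 and MGD3 in its values. It had 10.5 FPKM in WT (6.69 to 14.3) and 12.6 FPKM in acc1-5 (8.15 to 17.0), with overlapping bounds. The log2 difference of 0.26 was not called (q = 0.503 in the authors' deposited table). Its bounds allow a log2 difference of -0.81 to 1.35, which stays below the 2.24 that the bounds of MGD3 give at the least but reaches past the 0.69 that those of MGD2 give. Whether the isoforms differ in their response could not be tested, because the tables hold 1 level per genotype.

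**Figure D2:**
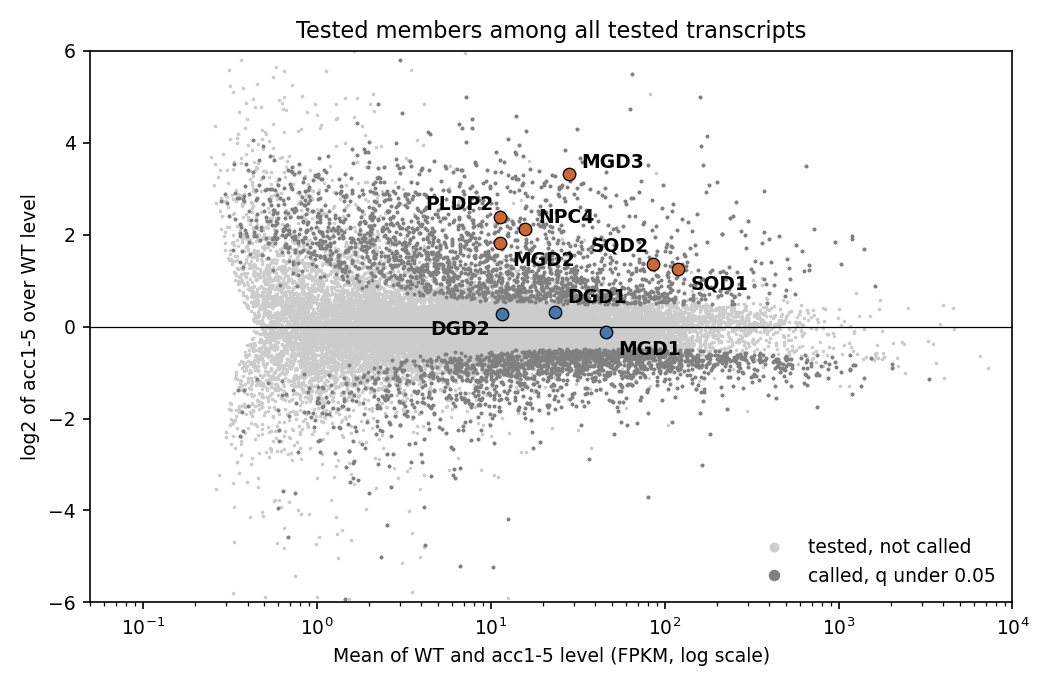
The log2 difference between acc1-5 and WT (y axis) against the mean level in FPKM on a log scale (x axis), for the 9 tested genes (large points, orange where called, blue where not) and all tested transcripts with a level above 0 in both genotypes (small points, dark where called). The y axis ends at 6 in either direction, which leaves out 103 of them; MGD3 stands at 3.32 and MGD1, DGD1 and DGD2 lie within the band of transcripts without a call.

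The make-up of the monogalactosyldiacylglycerol synthase transcripts differed between the genotypes. MGD2 and MGD3 together made up 17.6% of the summed level of MGD1, MGD2 and MGD3 in WT and 61.0% in acc1-5. With the bounds at their extremes the share lay between 8.36% and 30.5% in WT and between 44.9% and 74.7% in acc1-5, and these ranges did not overlap. MGD3 alone went from 8.92% to 45.5% of the family. The summed level was 1.96-fold higher in acc1-5, at 113 FPKM against 57.8 FPKM, while MGD1 alone stood at 0.926 of its WT level. In acc1-5 the bounds of MGD3 and MGD1 overlapped, so which of them was higher there cannot be told; in WT the bounds of MGD1 lay wholly above those of MGD3.

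The next step showed no such shift. DGD2 made up 33.5% of the summed level of DGD1 and DGD2 in WT and 32.5% in acc1-5, with ranges from the bounds of 19.7% to 49.7% and 19.3% to 48.5%. The summed DGD level was 31.4 FPKM in WT and 38.7 FPKM in acc1-5, a ratio of 1.23.

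The sulfolipid genes rose together and held the highest levels of the set. SQD1 encodes the enzyme that forms UDP-sulfoquinovose, the head group donor, and SQD2 the transferase that places this group on diacylglycerol. SQD1 lies on chromosome 4 at 15935416 to 15937807 and SQD2 on chromosome 5 at 86585 to 89986. SQD1 had 70.8 FPKM in WT (46.5 to 94.9) and 169 FPKM in acc1-5 (106 to 231). That is a 2.39-fold difference, 1.26 on the log2 scale (q = 7.46e-04 in the authors' deposited table). SQD2 had 47.7 FPKM in WT (31.3 to 63.9) and 123 FPKM in acc1-5 (81.1 to 165). Its difference was 2.58-fold, 1.37 on the log2 scale (q = 7.46e-04 in the authors' deposited table). The pair kept a similar proportion, SQD2 making up 40.3% of their sum in WT and 42.2% in acc1-5.

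Ranking by amount and ranking by fold gave different orders. In FPKM, the gain of SQD1 was 98.3 and that of SQD2 75.5, ahead of MGD3 with 46.3, NPC4 with 19.8, PLDP2 with 15.4 and MGD2 with 12.5. On the log2 scale SQD1 and SQD2 had the smallest differences of the 6 genes that rose. Their percentiles among the log2 differences of all tested transcripts were 91.4 and 92.3, against 94.6 for MGD2, 96.0 for NPC4 and 96.9 for PLDP2.

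UGP3 (AT3G56040), the plastid enzyme that supplies UDP-glucose for sulfolipid, rose as well, from 34.8 FPKM (23.6 to 46.0) to 54.1 FPKM (36.8 to 71.4). Its log2 difference was 0.64, with q = 0.00810 in the authors' deposited table, although its bounds overlapped. It was listed with genes of lipid transport into plastids and of related galactolipid metabolism, although its own role is in sulfolipid supply. Of the 8 tested genes in that list, UGP3 was the 1 called. That is 12.5%, where 10.9% of all tested main transcripts were called higher, and the list's median log2 difference was -0.12.

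PLDP2 and NPC4, whose products hydrolyse phospholipids, rose from low WT levels. Both lie on chromosome 3, PLDP2 at 1635200 to 1640348. PLDP2, also called phospholipase D zeta 2, releases phosphatidic acid and had 3.64 FPKM in WT (2.28 to 4.99) and 19.1 FPKM in acc1-5 (13.4 to 24.8). The difference was 5.25-fold, or 2.39 on the log2 scale (q = 7.46e-04 in the authors' deposited table), second to MGD3 among the 10 genes. NPC4, a non-specific phospholipase C that releases diacylglycerol, had 5.94 FPKM in WT (3.52 to 8.35) and 25.7 FPKM in acc1-5 (17.0 to 34.3). This was a 4.33-fold difference, 2.11 on the log2 scale (q = 7.46e-04 in the authors' deposited table). NPC5, a close relative of NPC4, was nearly absent in both genotypes, at 0.0324 FPKM in WT (0 to 0.0579) and 0.105 FPKM in acc1-5 (0 to 0.232), and the authors' program gave it no test.

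NPC3, NPC4 and NPC5 follow one another on chromosome 3, and on the TAIR10 build NPC4 lies at 842499 to 845043 and NPC5 at 846350 to 848297. NPC3 (AT3G03520), the neighbour before NPC4, had 7.37 FPKM in WT (4.48 to 10.2) and 13.7 FPKM in acc1-5 (8.81 to 18.7). It rose by 0.90 on the log2 scale (q = 7.46e-04 in the authors' deposited table), with overlapping bounds. These genes are related, and how reads matching more than one of them were divided is not given in the sources used here, so low levels such as that of NPC5 are uncertain.

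Set against their own relatives, PLDP2 and NPC4 took a larger share of their families in acc1-5. PLDP1 (AT3G16785), the zeta-type phospholipase D gene next of kin to PLDP2, had 15.1 FPKM in WT (10.6 to 19.5) and 14.3 FPKM in acc1-5 (10.0 to 18.5), and was not called (q = 0.905 in the authors' deposited table). The level of PLDP2 was 0.242 of that of PLDP1 in WT and 1.33 times that of PLDP1 in acc1-5, with bound-based ranges of 0.117 to 0.471 and 0.722 to 2.47 that did not overlap. NPC4 made up 7.95% of the summed level of NPC1 to NPC6 in WT and 27.1% in acc1-5. The bound-based ranges of that share, 3.67% to 15.7% and 15.4% to 43.0%, just overlapped. The remaining relatives were not called in the authors' deposited table, with log2 differences of 0.24 for NPC1 (q = 0.491), -0.29 for NPC2 (q = 0.549) and -0.44 for NPC6 (q = 0.0951).

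**Figure D3:**
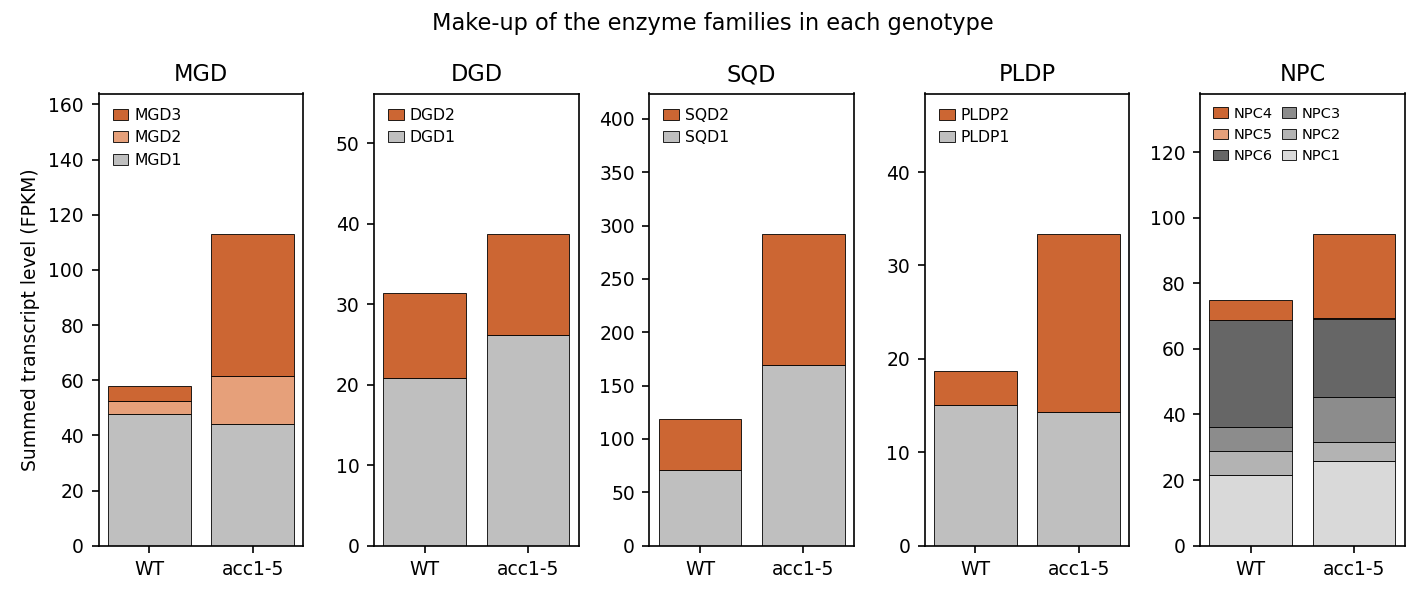
Summed level in FPKM, with 1 panel per enzyme family, or for SQD per pair of successive enzymes, and 1 bar per genotype. Each bar is divided into the levels of the panel's genes (main transcripts, no error shown). Each panel has its own scale starting at 0; MGD2 with MGD3, and PLDP2, fill most of the acc1-5 bar and little of the WT bar, whereas DGD2 and SQD2 keep their share.

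In WT the order of levels was SQD1, SQD2, MGD1, DGD1, DGD2, NPC4, MGD3, MGD2, PLDP2 and NPC5. Bounds of neighbours in this order overlapped, except between MGD1 and DGD1, between DGD1 and DGD2, and between PLDP2 and NPC5. In acc1-5 it was SQD1, SQD2, MGD3, MGD1, DGD1, NPC4, PLDP2, MGD2, DGD2 and NPC5. MGD3 moved from rank 7 to rank 3, while DGD2 moved from rank 5 to rank 9 with its own level nearly the same. Neighbours were separated by their bounds between SQD2 and MGD3 and between DGD2 and NPC5 only.

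Most tested genes listed for the later breakdown of phospholipid head groups rose as well, and so did some of the glycerol-3-phosphate permease family. As background, 10.9% of all tested main transcripts were called higher and 9.04% lower. Of 7 tested glycerophosphodiester phosphodiesterase and head group phosphatase genes, 6 rose and 0 fell, with a median log2 difference of 1.75. The phosphatase genes PS2 (AT1G73010), from 26.9 FPKM (15.7 to 38.0) to 306 FPKM (183 to 420.2), and PECP1 (AT1G17710), from 20.5 FPKM (12.6 to 28.4) to 174 FPKM (115 to 233), led this list. Of 4 tested genes of the glycerol-3-phosphate permease family, 2 rose and 0 fell, with a median of 1.17. These were G3Pp2 (AT4G25220), at 0.594 FPKM in WT and 4.36 FPKM in acc1-5, and G3Pp1 (AT3G47420), from 20.7 FPKM (13.5 to 27.9) to 87.0 FPKM (57.9 to 116).

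Other phospholipases and the phosphatidate phosphatases had calls in 20.0% and 12.5% of their tested genes, against 19.9% of all tested main transcripts. Among 15 tested genes of other phospholipases D and non-specific phospholipases C, 1 rose, 2 fell and 12 were not called, with a median log2 difference of -0.02. The rise was that of NPC3, and the falls were those of PLDALPHA2, from 2.52 to 1.18 FPKM, and PLDGAMMA3, from 14.1 to 8.20 FPKM. Of 8 tested phosphatidate and lipid phosphate phosphatase genes, 1 rose and 0 fell, with a median of -0.28. This was PAH1 (AT3G09560), which turns phosphatidic acid into diacylglycerol, from 7.97 FPKM (4.16 to 11.8) to 13.6 FPKM (8.73 to 18.5), with q = 0.0399 in the authors' deposited table. It lost its call at q under 0.01.

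Genes that build and desaturate plastid lipids went the other way where they were called. Of 10 tested members of that list, 3 fell and 0 rose, where 9.04% of all tested main transcripts were called lower. The list had a median log2 difference of -0.55. FAD5 (AT3G15850), a desaturase acting on monogalactosyldiacylglycerol, fell from 96.4 FPKM (61.8 to 131) to 53.0 FPKM (33.8 to 71.1). FAD6 (AT4G30950), a further plastid desaturase, fell from 198 FPKM (125 to 271) to 111 FPKM (72.9 to 149). The third, FAD7, named after its values were seen, fell by 0.69 on the log2 scale. The bounds of the genotypes overlapped for all 3, so none of these falls is called where bounds must be separate. Beside these falls, the 4 leaf mesophyll markers had log2 differences of -1.02 to -0.66, and 1 of them, LHCB1.1, fell (q = 0.0193 in the authors' deposited table), a call lost at q under 0.01 and where bounds must be separate. Their summed level was 13261 FPKM in WT and 7332 FPKM in acc1-5, mostly that of RBCS1A, whose bounds in WT run from 0.165 to 28301 FPKM. The part of the leaf markers in the falls was not tested.

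Phospholipid synthesis outside plastids had 1 rise and 1 fall among 13 tested genes, calls in 15.4%, with a median log2 difference of 0.08. The rise was that of PSS1, a phosphatidylserine synthase gene, by 0.66 on the log2 scale, and the fall that of AT1G73600, by 0.68. Over the 7 lists of other lipid genes, 12 rose, 6 fell and 47 of 65 tested genes were not called. The calls made up 27.7% of those tested. Among all tested main transcripts, 19.9% were called, 10.9% higher and 9.04% lower.

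Most phosphate status markers had higher levels in acc1-5 than in WT. Of 15 tested, 12 rose and 0 fell, where 10.9% of all tested main transcripts were called higher. The list had a median log2 difference of 2.08. IPS1 (AT3G09922), a non-coding RNA of the phosphate response, rose by 4.99 on the log2 scale and RNS1 (AT2G02990), a secreted ribonuclease gene, by 4.08. Those without a call, named after their values were seen, were PHR1, PHL1 and PHO2. PHR1 (AT4G28610), a transcription factor gene known to direct this response, had 38.9 FPKM in WT (25.8 to 51.8) and 34.8 FPKM in acc1-5 (23.1 to 46.5), with q = 0.712 in the authors' deposited table.

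**Figure D4:**
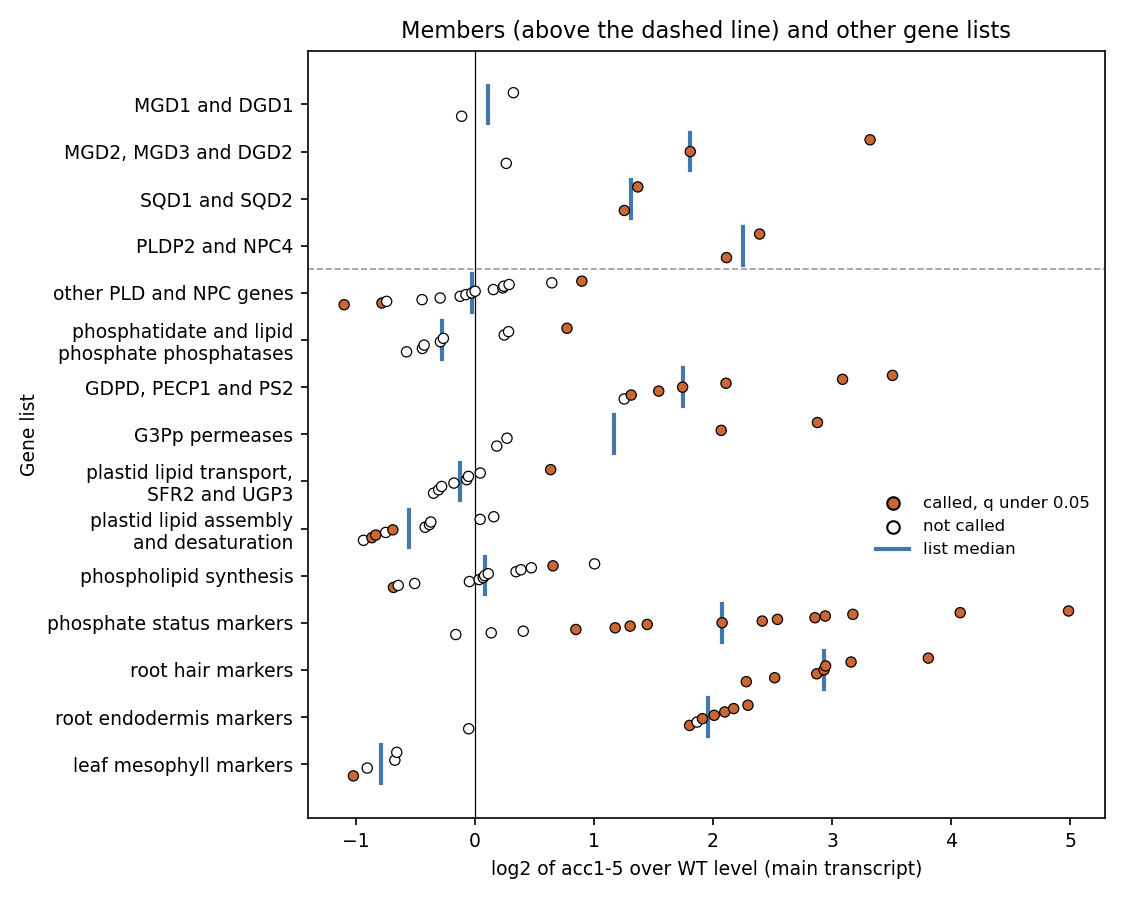
The log2 difference between acc1-5 and WT (x axis) of every tested gene, by list (y axis), with 1 point per gene, filled where called, and a bar at the list median. The 9 tested genes of galactolipid and sulfolipid remodelling stand above the dashed line; points of the GDPD, PECP1 and PS2, phosphate status and root hair lists lie mostly to the right, those of plastid lipid assembly and leaf markers mostly to the left.

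Markers of root cell types moved with the 6 rises. Of all tested main transcripts, 10.9% were called higher. All 7 root hair markers rose, with a summed level of 12.7 FPKM in WT and 110.4 FPKM in acc1-5, and 6 of 8 tested root endodermis markers rose, with sums of 28.4 and 63.5 FPKM over 9 genes. The root hair wall genes EXPA7 and PRP3 had log2 differences of 3.81 and 3.16, and the endodermis genes CYP86A1 and MYB36 of 2.29 and 2.17. None of the markers of these lists, leaf mesophyll included, was listed at 0. The tested endodermis genes without a call, named after their values were seen, were SCR and CASP4. SCR had 17.3 FPKM in WT and 16.7 FPKM in acc1-5. CASP4 had 0.311 FPKM in WT and 1.13 FPKM in acc1-5, a log2 difference of 1.87 (q = 0.118 in the authors' deposited table). Whole seedlings were measured, so more cells of a type and more RNA per cell cannot be told apart, and the part of the root markers in the rises of MGD2, MGD3, SQD1, SQD2, PLDP2 and NPC4 was not tested.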

How the data were processed

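RNA from 3 WT and 3 acc1-5 libraries was measured by RNA sequencing. Per the submitters' processing notes, the tools were Cuffdiff 2.1.1, Cufflinks 2.1.1, TopHat 1.4.0 and Bowtie, and the build was TAIR10. The authors deposited FPKM levels with bounds, 1 per genotype; no source used here gives the bounds' confidence level or how libraries were combined. Their second deposited table has, per transcript, a log2 fold change (acc1-5 over WT), a test statistic (a score, not used here), a p-value and a q-value. Columns named ACC1 hold the mutant, taken as acc1-5 because no other mutant has RNA libraries. Of 42818 transcripts 25307 were tested.

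Log2 differences, family shares, list counts and medians were computed from these values with Python 3.11.15 and pandas 2.3.3, and the repeated Benjamini-Hochberg adjustment was tested on simulated data. Bound-based ranges set one gene's lower bound against the other's upper bound. Depth is unknown, and whole reads could not be recovered: at best 20.9% (WT) and 23.3% (acc1-5) of low values came within 5% of a multiple of any single step. No count test was run. Likeness of patterns between genes cannot be measured with 1 level per genotype. Locus starts were raised by 1 base, since the deposited ones count from 0.

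The members and lists were chosen with earlier results of these data known. The text names all 10 members, the other PLDP and NPC genes, and in each other list the 2 largest rises and 2 largest falls among called genes with a mean level of at least 1 FPKM. All 114 listed identifiers matched the RefSeq gene table of TAIR10.1, used for names only. None of the 10 loci overlapped another gene's locus. The labels do not say whether libraries came from separately grown seedlings. Alternatives were q under 0.01, only transcripts with a mean of at least 1 FPKM, separate bounds in place of q, a pseudocount of 1, other scalings, and sums over a gene's transcripts.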

Additional observations from a re-analysis of the deposited data

How the results depend on the processing

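The 6 rises of MGD2, MGD3, SQD1, SQD2, PLDP2 and NPC4 kept their call at q under 0.01, with only transcripts of a mean of at least 1 FPKM (22637 transcripts, adjusted again), and where separate bounds replaced q; 0 members were called lower in any of these. Centring on the median and scaling by the upper quartile shifted log2 differences by 0.01 and 0.02. With a pseudocount of 1 the log2 difference of NPC5 went from 1.70 to 0.10, and that of MGD3 to 3.09. Summing transcripts moved the acc1-5 share of MGD2 and MGD3 to 61.7%. Where bounds had to be separate, 8 other lipid genes were called higher instead of 12, and 0 were called lower instead of 6. Of genes by main transcript 1075 were then called higher and 335 lower, and of all transcripts 1082 and 340. At q under 0.01, 1169 genes by main transcript and 1174 of all transcripts were called lower; at q under 0.05 these counts were 1855 and 1879, with 2236 and 2251 higher. Among the other lipid genes named, PAH1, PSS1 and PLDALPHA2 lost their call at q under 0.01. The cause was not tested. No paired analysis was possible because the tables hold 1 level per genotype, and for the same reason limma and leaving out single libraries were not run. Bounds of tested members spanned 29.8% to 45.6% of the level on either side, which limits what could be called.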

Other observations

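The genes next to the 6 risen members were looked up after the members' values were seen. Of 11 such neighbours that are not members themselves, 9 were tested and 4 were called, all higher in acc1-5, where 10.9% of all tested main transcripts were called higher. They were NPC3 beside NPC4, AT5G20400 beside MGD2 (26.8 and 45.0 FPKM in WT and acc1-5; the authors' deposited table gives q = 0.00138), and ZIP9 and AT4G33040 on either side of SQD1. The authors' deposited table gives q = 0.0114 for AT4G33040, with 9.43 FPKM in WT and 17.5 FPKM in acc1-5. For ZIP9, a gene of a metal transporter family, it gives q = 0.0489, with 0.239 and 0.908 FPKM. The calls of ZIP9 and AT4G33040 are lost at q under 0.01. CHR42, on the other side of MGD2, had the lower level in acc1-5, at 1.19 FPKM in WT and 0.631 FPKM in acc1-5, and just missed a call (q = 0.0503 in the authors' deposited table). The genes on either side of MGD3 were listed at 0 FPKM in both genotypes, and those beside SQD2 and PLDP2 were not called. None of these loci overlapped the member's own locus, and with 9 tested neighbours the count is a description only.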
